A study of Mus musculus with 18 samples.

Results

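The genes described here encode the enzymes of phase II conjugation in mouse liver, namely the glutathione S-transferases (GST), the microsomal GST (MGST), the UDP-glucuronosyltransferases (UGT) and the cytosolic sulfotransferases (SULT). Members were all rows of the expression table whose gene symbol starts with Gst and a class letter (a, k, m, o, p, t or z), Mgst, Ugt or Sult, followed by a digit. The rule itself uses the symbol and no expression value. This gave 49 of the 14451 genes in the table, of which 22 were GST or MGST genes, 20 UGT genes and 7 SULT genes.

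Livers came from WT male mice of 8 to 9 weeks that were kept in 12 h of light and 12 h of dark. By the labels, groups differ only in zeitgeber time (ZT), which counts the hours from lights on. The methods name no batches of collection or of libraries. At each of ZT1, ZT5, ZT9, ZT13, ZT17 and ZT21, 3 mice were taken. Each mouse gave 1 whole liver, so the 18 livers are from 18 mice and none was sampled at more than 1 time. According to the methods, more mice were kept than sequenced and those with the best RNA were used, and the dataset serves to find genes with a circadian rhythm.

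Conjugation enzymes attach a polar group to drugs, hormones, bile pigments and reactive products of metabolism, which makes these more soluble and easier to export. GST enzymes transfer glutathione, UGT enzymes transfer glucuronic acid from UDP-glucuronate and SULT enzymes transfer sulfate from 3′-phosphoadenosine 5′-phosphosulfate (PAPS). The liver is the main organ of all of these reactions, and several of the gene families lie in clusters of close paralogs that arose by duplication.

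Values are normalized values on a linear scale, each an estimated read count plus 0.5 reads, expressed per 1000000 reads of an effective library size, with no correction for gene length. Between 10268168 and 23242842 estimated reads were behind each liver, and 1 read was worth between 0.0416 and 0.0956. All 49 members were above the value of 0 reads in at least 1 liver and 46 in every liver. Mean values were at least 1 in 45 members, while Mgst2, Sult2a7, Ugt1a2 and Ugt2a2 were under 1. In the check of the labels, the summed hepatocyte markers (Alb, Ttr, Apoa1, Serpina1a, Tat and Cps1) were between 70100 and 101000 per liver, against 65.5 to 154 for 5 Kupffer cell markers and 5.81 to 15.8 for 5 cholangiocyte markers. By 14 clock genes, 17 of 18 livers lay nearest to the mean of their own time point, and ZT5 replicate 3 lay nearest to ZT9. Without this liver the 24 h test called 20 members, with Gstt1 and Gstt3 gained and Sult5a1 lost, and the test between time points described below called 19 instead of 20, with Ugt1a1 gained and Sult5a1 and Ugt1a9 lost.

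Together the members took between 1.182% and 1.624% of the summed values of a liver, with a mean of 1.569% ± 0.061 (SD, n = 3) at ZT1 and 1.351% ± 0.149 at ZT5. To set different genes beside each other, levels were divided by the merged exons of all annotated transcripts of a gene. This length can exceed that of the transcripts expressed (4344 bases for Gsta3, 1473 for Gstm1), so the order of genes is approximate. Per kilobase of merged exons, the mean level was highest for Gstp1 (1380 per kb), the pi class GST, and for Mgst1 (1300 per kb), a membrane-bound GST of the endoplasmic reticulum. Next came Gstm1 (754 per kb), Ugt2b5 (534 per kb) and Gsta3 (355 per kb). At the other end, Ugt2a2 (0.165 per kb), Mgst2 (0.218 per kb) and Ugt1a2 (0.297 per kb) were barely measured, with median estimated reads per liver of 4.17, 10.2 and 6.41.

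A rhythm of 24 h was found in 19 of the 49 members (38.8%), against 35.3% of the 14449 genes tested. The test was limma's moderated F test of a 24 h cosine and sine on log2(value + 1), with P-values adjusted by Benjamini–Hochberg over all genes and a threshold of 0.05. A call is always such an adjusted P-value under 0.05. The 19 members were Gsta2, Gsta3 and Gsta4 of the alpha class, Gstm1, Gstm2, Gstm3, Gstm4, Gstm6 and Gstm7 of the mu class, Gstt2 of the theta class, Ugt1a1, Ugt1a9, Ugt1a10, Ugt2b34, Ugt2b37, Sult1a1, Sult1c2, Sult1d1 and Sult5a1. Since the livers are bulk tissue, fewer cells of a type and less RNA per cell cannot be told apart in any of these values. Of the cell type markers, Sox9, Krt19 and Epcam, 3 of 5 for cholangiocytes, were called too, and the summed cholangiocyte markers had means of 6.63 at ZT5 to 13.6 at ZT1. Calls were also made in 2 of 6 hepatocyte, 1 of 5 Kupffer, 2 of 5 endothelial, 0 of 5 stellate, 0 of 3 erythroid and 1 of 3 neutrophil markers. None of these markers was at the value of 0 reads in any liver, and their part in the members' results was not tested.

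Counts were uneven among the families, a difference that was not tested. Calls were made in 10 of 22 GST and MGST genes, 5 of 20 UGT genes and 4 of 7 SULT genes. Within the GST genes they fell on 6 of 7 mu and 3 of 4 alpha genes, and on none of the 2 pi genes, the 3 kappa, omega and zeta genes or the 3 MGST genes. Over all members, the fitted difference between peak and trough had a median of 0.47 on the log2(value + 1) scale, beside 0.32 over all genes tested. The highest time point mean was a median of 1.68 times the lowest in members and 1.48 times in all genes.

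A test of any difference between the 6 time points (limma, moderated F test) called 20 members (40.8%, against 26.3% of all genes). The count was 17 to 23 under 6 other ways of processing, and the least stable calls were those of Sult5a1, lost in 18 of 24 alternatives (15 of them leaving out a liver), Ugt1a9, lost in 17, and Gstp1, lost in 12. Of the 20, Gsto1, Gstp1, Gstt1 and Gstt3 were not called by the 24 h test, and Gstm2, Ugt1a1 and Ugt1a10 were called by the 24 h test only. A further 26 members were called by neither. JTK, a rank-based algorithm that the study used, was written again here, with a null that takes the 6 time points as 6 distinct ranks. This version called 6 members (12.2%, against 14.1% of all genes), which were Gsta3, Gstm4, Gstm7, Ugt1a1, Ugt2b34 and Ugt2b37, and all 6 were among the 19. Its counts are not those of the study's own JTK run, and they rose under another null, as given below. A term of 12 h on top of that of 24 h was called in 0 members by limma (0.872% of all genes), while 8 had an unadjusted P-value under 0.05 (16.3%, against 12.6% of all genes). These 8 were Gsta3, Gstm1, Gstm3, Gstm6, Gsto1, Gstt2, Sult1c2 and Sult5a1. In 38 members (77.6%, against 70.8% of all genes) the 3 livers at the highest time point all lay above the 3 livers at the lowest, and all 19 members with a 24 h call were among them.

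**Figure D1:**
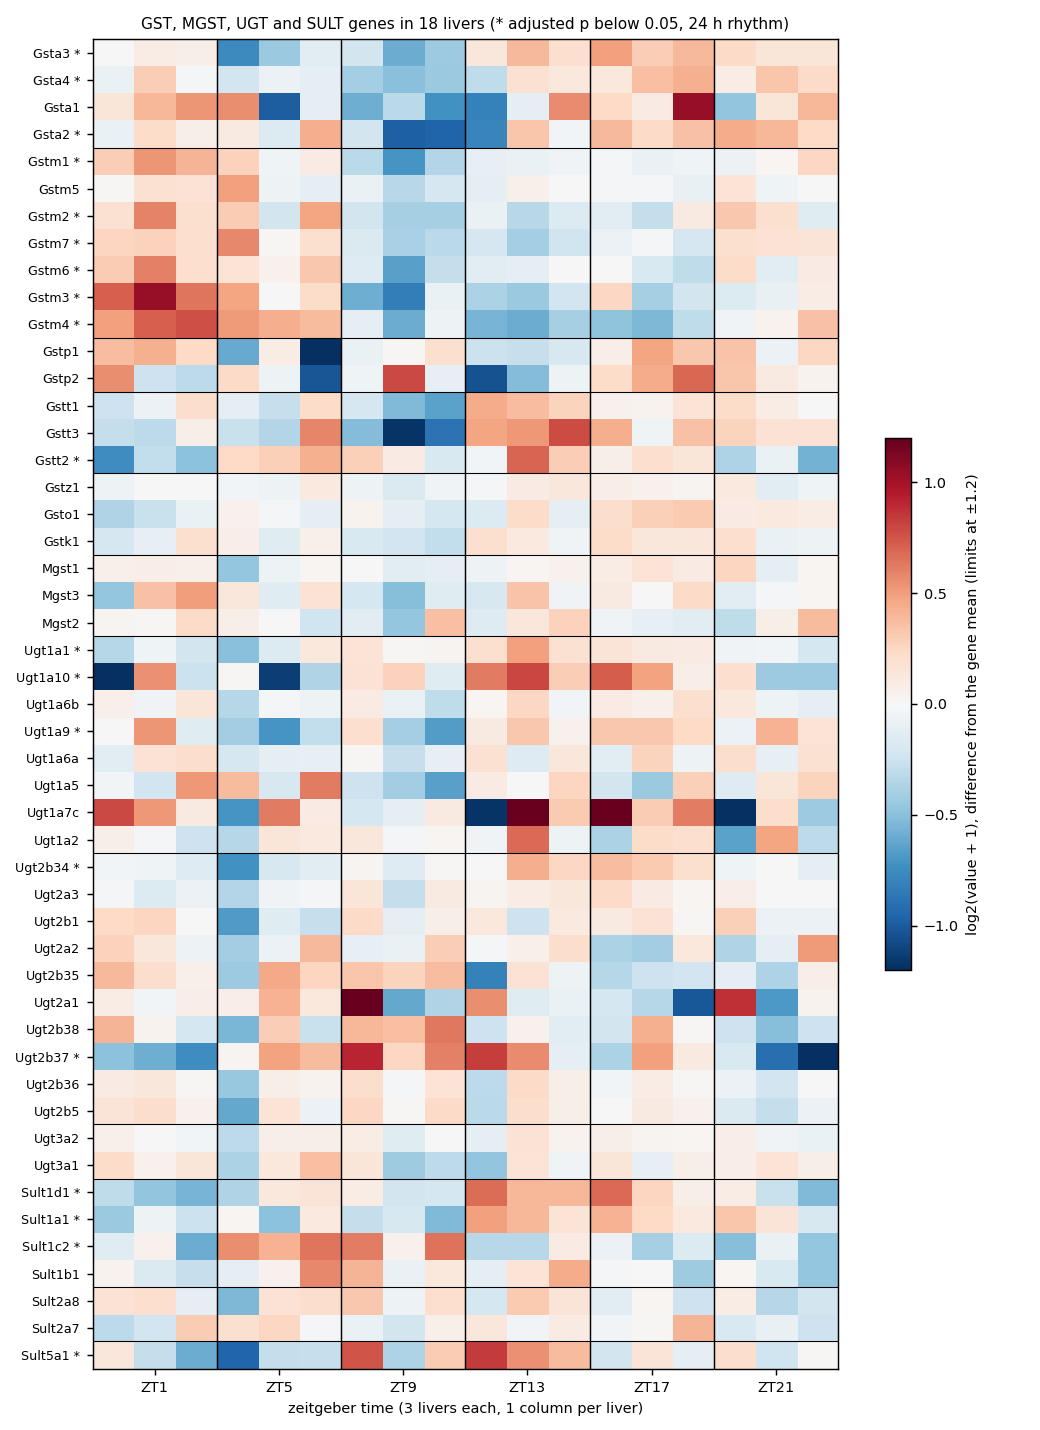
Heat map of the 49 members (rows, grouped by family) in the 18 livers (columns, 3 per zeitgeber time), coloured by log2(value + 1) minus the mean of the gene, with colour limits at ±1.2 and an asterisk on the 19 members called by the 24 h test. The mu genes are above their mean at ZT1 and below it at ZT9, Gsta3 and Gsta4 are above theirs at ZT17, and most UGT2 rows hold little colour apart from a low ZT5 replicate 1.

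Peak times of the 19 called members were spread unevenly over the day. Of the 19, 7 (36.8%) had a fitted peak between ZT21 and ZT3, against 21.4% of all 5103 called genes, and these were the 6 mu genes and Gsta2. Between ZT3 and ZT9 only Sult1c2 peaked (5.26%, against 31.3% of all called genes). Peaks between ZT9 and ZT15 were found for 6 members (31.6%, against 19.4%) and peaks between ZT15 and ZT21 for 5 (26.3%, against 27.9%).

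**Figure D2:**
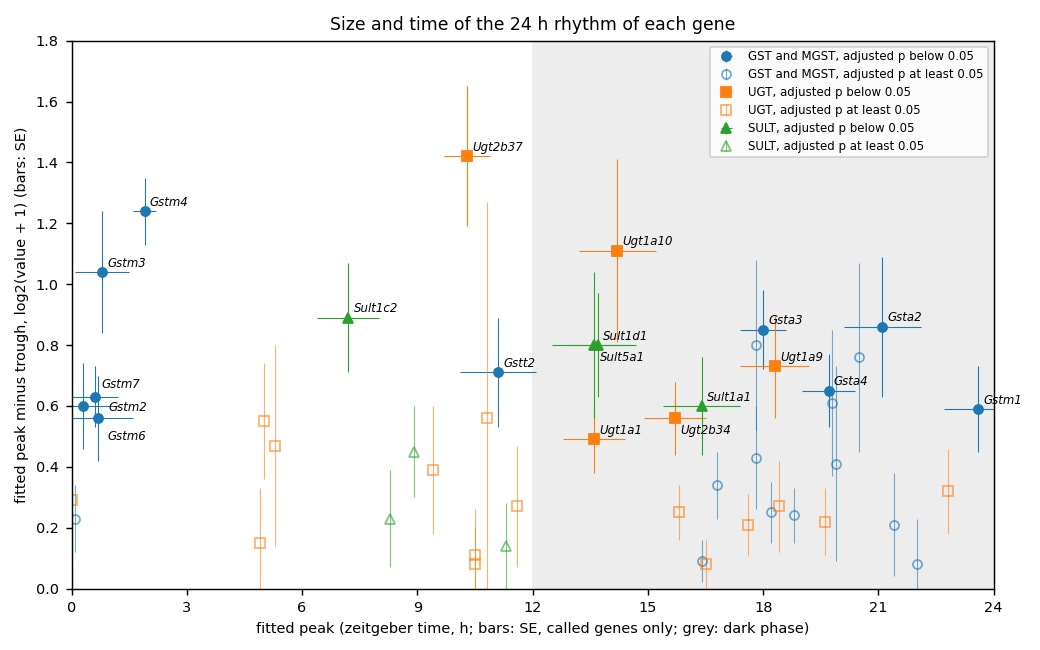
Fitted peak minus trough on the log2(value + 1) scale (vertical axis) against fitted peak time (horizontal axis, zeitgeber time in h, dark phase in grey) for each member, with filled symbols for called and open symbols for other members and bars for standard errors. Called mu genes lie between ZT23.6 and ZT1.9, and the called alpha genes lie between ZT18.0 and ZT21.1.

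Low points were most often at ZT9, late in the light phase. The lowest of the 6 time point means fell at ZT9 in 17 members (34.7%, against 17.7% of all genes), among them 6 of the 7 mu genes, Gsta1, Gsta2, Gsta4, Gstt1, Gstt3 and Sult1a1. It fell at ZT5 in 12 members (24.5%, against 16.8%). The highest mean fell at ZT17 in 13 members (26.5%, against 16.9%) and at ZT1 in 11 (22.4%, against 14.4%). The summed hepatocyte markers had a mean of 72400 at ZT9, the lowest of the 6 time points, and 93300 at ZT17, the highest, and their part in these results was not tested. Most of this sum was Alb, which was not called (adjusted P = 0.0689), and the markers did not share 1 course, since Tat and Ttr were called with peaks at ZT19.2 and ZT21.7 while Apoa1, not called, had its fitted peak at ZT8.0. Single livers mattered as well, since ZT5 replicate 1 held the lowest of the 18 values in 14 members (7.99% of all genes) and ZT9 replicate 2 in 12 members (7.22% of all genes). Without ZT5 replicate 1, 21 members were called, the 19 and also Gsto1 and Ugt2b35, and without ZT9 replicate 2, 19 were called, with Sult1b1 in place of Gsta2.

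The mu class enzymes conjugate epoxides and other electrophiles, and their 7 genes lie side by side between chr3:107895821 and 108044894 of GRCm38. All 6 called mu genes peaked around lights on, between ZT23.6 (Gstm1) and ZT1.9 (Gstm4), and fell to lows at ZT9 or, for Gstm4, at ZT13. Gstm4 had the smallest P-value of all members. Its values were 57.6, 67.2 and 70.2 in the livers at ZT1, 58.2, 55.1 and 53.3 at ZT5 and 37.5, 26.6 and 38.8 at ZT9. They then stayed low, at 27.3, 26.5 and 30.6 at ZT13 and 28.7, 27.6 and 32.7 at ZT17, and were back at 39.3, 41.7 and 52.0 at ZT21. All 6 livers at ZT1 and ZT5 lay above the other 12, and the mean of ZT1 (65.0 ± 6.57, SD, n = 3) was 2.31 times that of ZT13 (28.2 ± 2.17). The fitted peak was at ZT1.9 ± 0.3 h (SE), with a peak to trough difference of 1.24 ± 0.11 on the log2 scale (adjusted P = 1.53e-06).

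Gstm1 took the most reads of the class. It was measured at 1340, 1580 and 1450 at ZT1 and at 1320, 1050 and 1170 at ZT5. At ZT9 it was at its lowest, with 870, 668 and 855, while the 9 livers from ZT13 to ZT21 held between 1020 and 1300. The livers at ZT9 thus lay below all others, with a mean of 798 ± 113 against 1450 ± 118 at ZT1 (1.82 times, peak to trough 0.59 ± 0.14 on the log2 scale, adjusted P = 0.00839). Its unadjusted P-value for a 12 h term was 0.00174 (adjusted 0.0978), the smallest of the members.

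Gstm3 changed more, from 72.6 ± 11.3 at ZT1, with livers at 67.9, 85.6 and 64.4, to 29.4 ± 8.32 at ZT9, with livers at 26.9, 22.6 and 38.7. This is a ratio of 2.47, and the 3 livers at ZT1 were above the other 15 (adjusted P = 0.0025). The other called mu genes had smaller ratios, of 1.67 for Gstm6 (112 ± 17.1 at ZT1, adjusted P = 0.012), 1.62 for Gstm2 (52.8 ± 9.15 at ZT1, adjusted P = 0.00999) and 1.5 for Gstm7 (54.6 ± 11.4 at ZT5, adjusted P = 0.000565). Gstm5 was the exception of the class, with means between 4.77 and 6.26 and an adjusted P-value of 0.238.

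**Figure D3:**
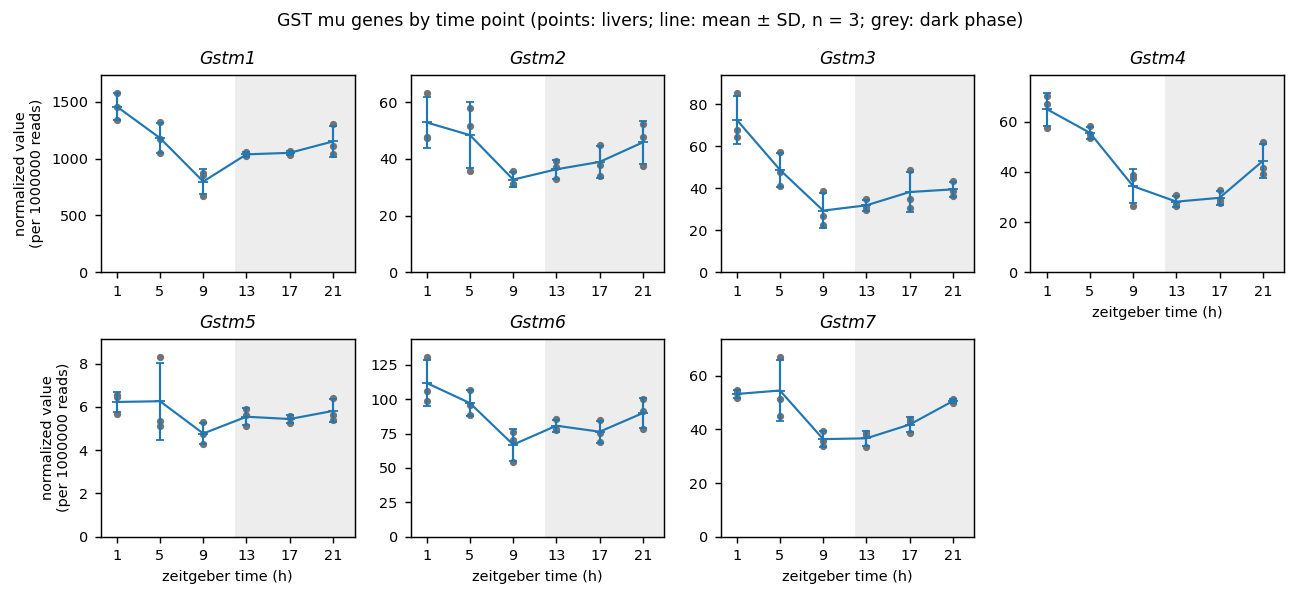
Normalized values of the 7 GST mu genes (vertical axes from 0, per 1000000 reads) against zeitgeber time (h), with 1 point per liver, the mean and its SD (n = 3) as a line with bars and the dark phase in grey. All but Gstm4 have their lowest mean at ZT9, where Gstm1 is at 798, and Gstm4 stays at 28.2 and 29.7 at ZT13 and ZT17.

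Neighbouring mu genes did not all keep the same course. The log2 ratio of Gstm1 to Gstm4, which are next to each other, was 4.465 at ZT1, 4.378 at ZT5 and 4.508 at ZT9 on average, and 5.159, 5.101 and 4.666 at ZT13, ZT17 and ZT21. Its 24 h rhythm had a peak to trough difference of 0.826 ± 0.092 (SE) on the log2 scale, with a P-value of 1e-05 in a permutation test over livers, the smallest that 100000 draws can give, and 0.00027 after adjustment over 27 pairs of neighbours. From ZT9 to ZT13 the mean of Gstm1 went from 798 to 1040 and that of Gstm4 from 34.3 to 28.2. For Gstm5 against Gstm7 the ratio also had a rhythm (0.403 ± 0.078, adjusted P = 0.00202, permutation test), whereas for Gstm2 against Gstm1 it was 0.116 ± 0.154 (adjusted P = 0.89, permutation test).

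The windows around the starts of these genes, from 250 bases before the start to 50 after, are given for Gstm1 and Gstm4 as the pair of neighbours whose ratio had the smallest P-value. Both are from RefSeq on GRCm38.p6 and are read on the minus strand, at chr3:108017924-108018223 for Gstm1 and chr3:108044810-108045109 for Gstm4. Capitals mark the dioxin element GCGTG, the core bound by the aryl hydrocarbon receptor, where it occurs.
Gstm1: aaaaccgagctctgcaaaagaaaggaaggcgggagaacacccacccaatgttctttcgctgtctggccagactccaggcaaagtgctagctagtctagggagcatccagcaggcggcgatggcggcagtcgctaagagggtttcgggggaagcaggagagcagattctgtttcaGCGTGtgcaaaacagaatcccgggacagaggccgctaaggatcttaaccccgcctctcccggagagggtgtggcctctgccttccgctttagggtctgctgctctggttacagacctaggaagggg
Gstm4: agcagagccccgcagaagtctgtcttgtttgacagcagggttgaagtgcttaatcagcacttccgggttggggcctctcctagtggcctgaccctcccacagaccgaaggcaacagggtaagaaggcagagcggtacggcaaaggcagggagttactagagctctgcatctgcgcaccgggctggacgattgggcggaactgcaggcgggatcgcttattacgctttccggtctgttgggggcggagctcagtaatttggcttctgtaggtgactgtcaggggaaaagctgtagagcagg

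Windows of this kind were at hand for 44 of the 49 members. For each member the 1 window nearest to the annotated start of the gene was searched on both strands for 6 motifs. The shares of all windows count every window of a gene. The E-box CACGTG, bound by CLOCK and BMAL1, was in 0 of the 44 and in 7.15% of all 32851 windows. The D-box (TTATGTAA or TTACGTAA), bound by DBP, TEF and HLF, was in the window of Ugt2b1 and in 1.06% of all windows, and the ROR element TAGGTCA was in that of Sult1b1 and in 2.61% of all. The antioxidant element TGACNNNGC, bound by NRF2, was in 3 members (6.82%, against 12.4% of all windows), namely Gsta3, Gstm5 and Mgst1. GCGTG was in 8 members (18.2%, against 32.4%) and the element of HNF1, searched as a motif of 12 letters, in 0 (0.0609% of all). Over every window of a member, the antioxidant element was in 4 members, with Gstm7 added. The ROR element was then in 2, with Sult2a8 added, and GCGTG in 9, with Sult1b1 added. A match describes the letters of a window only, and the absence of one says nothing of elements elsewhere.

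Alpha class enzymes conjugate lipid peroxidation products, and 3 of the 4 genes had a rhythm with peaks in the dark phase, between ZT18.0 and ZT21.1. Gsta3 was measured at 884, 1100 and 1370 at ZT5 and at 1290, 991 and 1110 at ZT9. It then rose to 1650, 1970 and 1720 at ZT13 and 2110, 1840 and 1970 at ZT17, with 1760, 1660 and 1660 at ZT21 and 1490, 1600 and 1570 at ZT1. All 6 livers at ZT5 and ZT9 lay below the other 12. The mean of ZT17 (1970 ± 135) was 1.76 times that of ZT5 (1120 ± 246), with a peak at ZT18.0 ± 0.6 h (adjusted P = 0.000239).

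The start of Gsta3 is shown because it is one of the 3 members with an antioxidant element, in capitals, in the window searched. This window is at chr1:21240335-21240634 on the plus strand (RefSeq, GRCm38.p6).
Gsta3: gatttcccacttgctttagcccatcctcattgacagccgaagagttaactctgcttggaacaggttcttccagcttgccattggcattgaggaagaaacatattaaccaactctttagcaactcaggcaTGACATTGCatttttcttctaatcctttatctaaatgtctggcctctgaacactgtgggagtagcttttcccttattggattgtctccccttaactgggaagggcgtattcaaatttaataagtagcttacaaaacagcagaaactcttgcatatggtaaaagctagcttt

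Gsta4, whose product prefers the lipid aldehyde 4-hydroxynonenal, was at 43.2, 40.5 and 42.1 at ZT9, below every other liver, and at 63.1, 74.2 and 77.7 at ZT17 (1.71 times, peak at ZT19.7 ± 0.7 h, adjusted P = 0.00121). Gsta2 had its lowest mean at ZT9 as well, with livers at 18.2, 10.3 and 10.5, and its highest at ZT21, with 29.4, 28.5 and 25.3 (2.13 times, adjusted P = 0.0187). This call was lost without ZT9 replicate 2 (adjusted P = 0.0552) or without ZT9 replicate 3 (0.0551). Gsta1 ranged from 1.56 to 9.53 with no call, and 90.5% of the 50-base windows of its transcripts, the length of a read, also occur in transcripts of another gene, so its value rests on how the authors' counting divided shared reads. For Gsta2 this share was 49.8%, and for Gsta3 and Gsta4 it was 0.3% and 0.0%.

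The theta class, which acts on small halogenated compounds, had 1 call of 3 in the 24 h test and 3 of 3 in the test between time points. Gstt3 changed the most within a few hours. It was at 28, 17.4 and 21.5 at ZT9 and at 56.8, 58.8 and 70.4 at ZT13, so its mean went from 22.3 ± 5.31 to 62.0 ± 7.35, 2.78 times, in 4 h. The livers of these times did not overlap, and the adjusted P-value between time points was 0.00258, against 0.087 for a 24 h rhythm. Gstt1, its neighbour on chromosome 10, had the same low and high, with 133, 106 and 97.6 at ZT9 and 209, 198 and 185 at ZT13 (1.76 times, adjusted P = 0.0103 between time points and 0.126 for 24 h). ZT5 replicate 3 held 61.4 for Gstt3, against 33.6 and 31.6 in the other livers of that time, and 179 for Gstt1. Without it both were called by the 24 h test, which then called 20 members.

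Gstt2, the third theta gene, shared the highest mean at ZT13 but not the low at ZT9. Its lowest mean was that of ZT1, with livers at 23.6, 32.8 and 28.5, and its means were 50.7 ± 3.59 at ZT5, 42.8 ± 7.04 at ZT9 and 51.7 ± 13.5 at ZT13. The ratio of highest to lowest mean was 1.82, with a peak at ZT11.1 ± 1.0 h (adjusted P = 0.0168). The log2 ratio of Gstt1 to Gstt2 had a rhythm of 0.894 ± 0.201 (adjusted P = 0.0125, permutation test), while for Gstt3 to Gstt1 the fitted difference was 0.372 ± 0.173 and did not pass (adjusted P = 0.236).

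Of the remaining GST genes, none was called by the 24 h test. Gstp1 had livers at 1360, 2190 and 834 at ZT5 and at 2660, 2770 and 2440 at ZT1, and its means were 1.8 times apart (adjusted P = 0.035 between time points and 0.131 for 24 h). The lowest value was that of ZT5 replicate 3, and the spread at ZT5 (SD 682) was the widest of the 6 time points. The call between time points was lost in 12 of 24 alternatives, among them 10 that left out a liver, and 33.7% of the 50-base windows of Gstp1 were shared with other genes, mainly with Gstp2. Gsto1, which reduces dehydroascorbate and arsenic species, rose from 61.1 ± 6.29 at ZT1 to 86.7 ± 3.13 at ZT17 (1.42 times, adjusted P = 0.031 between time points and 0.0513 for 24 h). The call between time points of Gsto1 was lost without any 1 of ZT1 replicates 1 and 2 and ZT17 replicates 1, 2 and 3, with an adjusted P-value of up to 0.0812. Gstz1, an enzyme of tyrosine breakdown, was among the steadiest members, with means between 533 and 596 (adjusted P = 0.589 for 24 h). Mgst1 had means between 2340 ± 398 at ZT5 and 2820 ± 81.4 at ZT17 (adjusted P = 0.117). Gstk1, with means of 60.2 to 79.8, Gstp2, with 3.43 to 7.58, Mgst3, with 5.92 to 8.57, and Mgst2, with 0.681 to 0.91, were called by no test.

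The 8 UGT1A members lie on chromosome 1, and each starts from a promoter of its own and is spliced to later exons that all share. Glucuronidation of bilirubin is the task of Ugt1a1, while Ugt1a6a and Ugt1a6b act on planar phenols. The common part, taken as the letters that are the same back from the coding end, made up 740 coding bases. This was between 46.0% and 46.6% of each coding sequence. The first shared exon is at chr1:88215044-88215175 (GRCm38, GENCODE M21, plus strand). Only reads that reach the first, own part tell the genes apart, and between 52.1% and 79.8% of the 50-base windows were shared. The stretches below show this for 4 of the genes, with the 30 coding bases before the common letters in lower case and the first 30 common letters in capitals. The change of case marks where the letters become the same, which need not be the border of the exons. Ugt1a6a and Ugt1a6b have the same letters on both sides.
Ugt1a1: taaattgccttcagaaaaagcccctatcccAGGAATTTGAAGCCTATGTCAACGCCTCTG
Ugt1a9: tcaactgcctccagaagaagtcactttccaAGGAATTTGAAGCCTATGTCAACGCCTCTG
Ugt1a6a: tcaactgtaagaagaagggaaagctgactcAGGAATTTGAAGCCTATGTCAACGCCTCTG
Ugt1a6b: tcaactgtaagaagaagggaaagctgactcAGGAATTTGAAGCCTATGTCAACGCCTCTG

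Ugt1a1, Ugt1a9 and Ugt1a10 were called, with peaks at ZT13.6, ZT18.3 and ZT14.2. Ugt1a1 was at 425, 520 and 462 at ZT1 and at 617, 759 and 612 at ZT13, which do not overlap. Its mean went from 469 ± 48.0 to 663 ± 83.7, 1.41 times, with a peak to trough difference of 0.49 ± 0.11 on the log2 scale (adjusted P = 0.00497). Ugt1a9 had its lowest mean at ZT5, with livers at 71.2, 58.2 and 77.4, and its highest at ZT17, with 120, 120 and 113 (1.71 times, adjusted P = 0.0103). Ugt1a10 had means between 1.51 ± 0.933 and 4.05 ± 0.871 (adjusted P = 0.0203), but from a median of 33.8 estimated reads per liver and as few as 2.96.

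The other UGT1A genes were not called, and Ugt1a2 did not exceed 1.6 in any liver. Ugt1a6a and Ugt1a6b had means of 110 to 130 and 119 to 142, and Ugt1a5 of 55.1 ± 7.71 at ZT9 to 92.3 ± 25.2 at ZT5 (adjusted P = 0.522). Ugt1a7c varied widely among livers of 1 time point, with 10.6, 71.2 and 31.5 at ZT13 and 0.991, 29.3 and 18.4 at ZT21, so its fitted difference of 0.56 ± 0.71 was smaller than its error. The sum over the 8 genes, which does not depend on how reads of the common exons were divided among them, was 961 ± 70.6 at ZT1, 904 ± 139 at ZT5 and 964 ± 86.2 at ZT9. It was highest at ZT13 with 1160 ± 119, and was 1090 ± 12.2 at ZT17 and 972 ± 32.7 at ZT21. Its course was not tested.

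The UGT2 genes, which glucuronidate steroids, bile acids and drugs, held 10 members in a cluster on chromosome 5, of which Ugt2b34 and Ugt2b37 were called. Ugt2b34 was at 353, 512 and 531 at ZT5, 586, 789 and 693 at ZT13 and 753, 724 and 668 at ZT17 (1.54 times from ZT5 to ZT17, peak at ZT15.7 ± 0.8 h, adjusted P = 0.00438). Ugt2b37 had the largest ratio of all members, 4.03, but at a low level. Its livers at ZT1 were at 1.32, 1.18 and 0.947, those at ZT9 at 5.17, 2.89 and 3.96 and those at ZT21 at 1.87, 0.75 and 0.359 (peak at ZT10.3 ± 0.6 h, adjusted P = 0.000547). A median of 29.5 estimated reads per liver stood behind it, and 18.3% of its 50-base windows were shared, most of them with Ugt2b5. Against each of its measured neighbours, Ugt2b5 and Ugt2a3, its log2 ratio had a rhythm of 1.309 ± 0.289 and 1.409 ± 0.247 (adjusted P = 0.0106 and 0.00319, permutation test).

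Most UGT2 genes of higher level were not called. Ugt2b5 had means of 869 to 1100, Ugt2b36 of 567 to 660, Ugt2a3 of 258 to 306 and Ugt2b1 of 636 ± 116 at ZT5 to 914 ± 85.4 at ZT1, with adjusted P-values of 0.826, 0.873, 0.0886 and 0.332. Ugt2b35 was at 328, 312 and 336 at ZT9 and at 204, 218 and 221 at ZT17 (1.52 times, adjusted P = 0.0768). Against Ugt2b36 its log2 ratio had a rhythm of 0.546 ± 0.1 (adjusted P = 0.00288, permutation test), and that of Ugt2b1 to Ugt2b35 one of 0.804 ± 0.199 (adjusted P = 0.0125). The log2 ratio of Ugt2b36 to Ugt2b5 had a fitted difference of 0.034 ± 0.05 (adjusted P = 0.89). Ugt2b38 had means of 60.7 ± 6.15 at ZT21 to 106 ± 11 at ZT9 (adjusted P = 0.305). Ugt2a1 and Ugt2a2 share 97.0% and 93.6% of their windows with other genes and were at the value of 0 reads in 1 and 2 livers, with highest values of 3.84 and 0.985.

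Ugt2b1 was the member with a D-box within its window, which is shown for that reason, at chr5:86926454-86926753 on the minus strand (RefSeq, GRCm38.p6). The capitals mark the D-box, read on the other strand.
Ugt2b1: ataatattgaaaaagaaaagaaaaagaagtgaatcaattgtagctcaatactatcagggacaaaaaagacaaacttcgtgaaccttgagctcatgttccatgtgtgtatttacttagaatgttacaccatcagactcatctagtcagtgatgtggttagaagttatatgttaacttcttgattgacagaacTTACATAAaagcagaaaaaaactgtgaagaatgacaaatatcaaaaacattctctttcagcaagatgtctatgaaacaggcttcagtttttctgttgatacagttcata

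Ugt3a1 and Ugt3a2, which use other UDP-sugars than glucuronate, had means of 79.5 to 99.6 and of 297 to 316 with no call (adjusted P = 0.184 and 0.748 for 24 h). The log2 ratio of Ugt3a1 to Ugt3a2 had a rhythm of 0.339 ± 0.094 (adjusted P = 0.0272, permutation test), as did that of Ugt1a10 to Ugt1a9 (0.998 ± 0.294, adjusted P = 0.0272). In all, 10 of the 27 pairs of neighbours had a ratio that changed over the day. Pairs of other genes were not tested, so no share over them can be set beside this count. Leaving out 1 liver at a time gave 8 to 12 pairs. Without ZT5 replicate 3 there were 12, these 10 and also Gstt3 against Gstt1 and Ugt2b34 against Ugt2b1. Ugt1a10 against Ugt1a9 and Ugt3a1 against Ugt3a2 were each lost in several of these fits. Both were lost, for instance, without any 1 of ZT1 replicate 1, ZT9 replicate 2 and ZT9 replicate 3. The other pairs of the 10 were kept in every such fit.

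Among the sulfotransferases, 3 of 4 SULT1 genes, 0 of 2 SULT2 genes and Sult5a1 were called. Sult1d1, which sulfates catecholamines, was at 83.6, 74.2 and 70.1 at ZT1, 80.4, 113 and 115 at ZT5 and 110, 88.9 and 89.2 at ZT9. It rose to 165, 137 and 137 at ZT13 and 166, 124 and 109 at ZT17, and was at 110, 85.8 and 71.6 at ZT21. The livers at ZT13 were all above those at ZT1, ZT5, ZT9 and ZT21, with a mean 1.93 times that of ZT1 (146 ± 16.0 against 76.0 ± 6.94, peak at ZT13.7 ± 0.8 h, adjusted P = 0.00482). Its neighbour Sult1b1 was not called (adjusted P = 0.0695), and the log2 ratio of Sult1b1 to Sult1d1 had a rhythm of 0.785 ± 0.161 (adjusted P = 0.00319, permutation test).

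Sult1a1, the main phenol sulfotransferase, was at 163, 175 and 138 at ZT9 and at 282, 263 and 224 at ZT13 (1.62 times, peak at ZT16.4 ± 1.0 h, adjusted P = 0.0198). Without ZT5 replicate 2 its adjusted P-value was 0.0515. Sult1c2 was the single called member with a peak in the middle of the light phase, at ZT7.2 ± 0.8 h. It was at 4.74, 4.21 and 5.1 at ZT5 and 1.74, 2.69 and 1.83 at ZT21 (2.24 times, adjusted P = 0.00288), from a median of 34.5 estimated reads. Sult5a1 was at 9.63, 7.69 and 6.73 at ZT13 and 2.07, 3.87 and 3.89 at ZT5 (2.45 times, adjusted P = 0.0371), and this call was lost without any 1 of 8 livers (adjusted P up to 0.0981 without ZT13 replicate 1). Sult2a8, a bile acid sulfotransferase, had means of 656 to 815 with no call (adjusted P = 0.444), and Sult2a7 had means of 0.372 to 0.711.

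**Figure D4:**
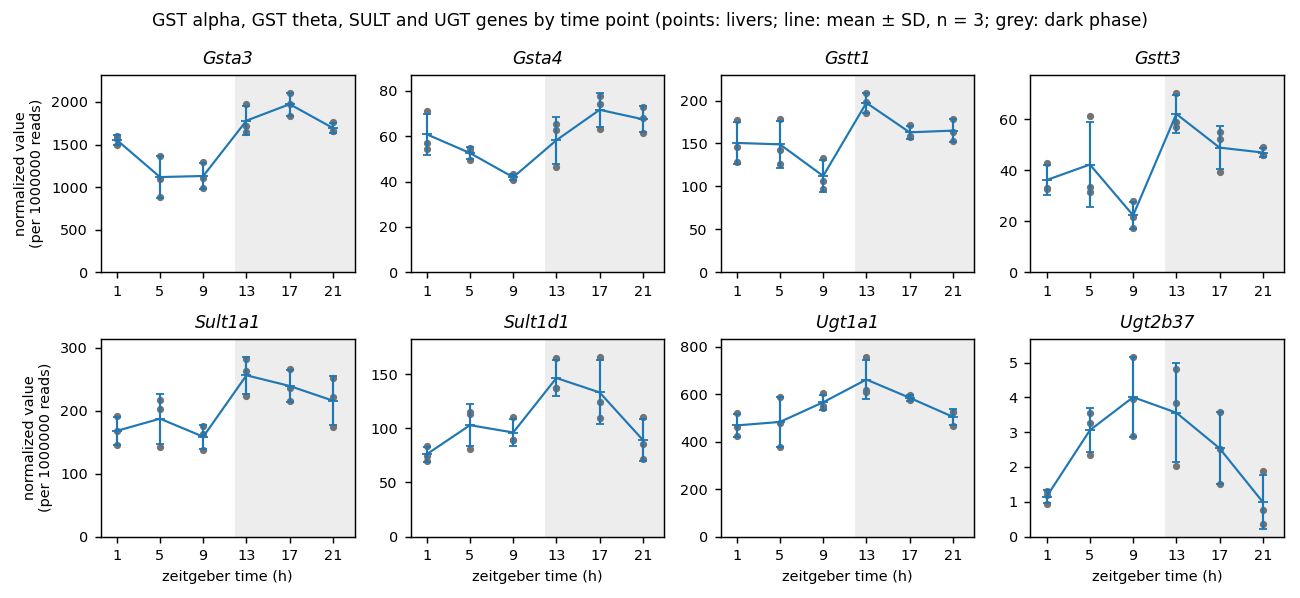
Normalized values of 8 members of other families (vertical axes from 0, per 1000000 reads) against zeitgeber time (h), with 1 point per liver, the mean and its SD (n = 3) as a line with bars and the dark phase in grey. Gstt1 and Gstt3 go from their lowest mean at ZT9 to their highest at ZT13 (22.3 to 62.0 for Gstt3), Gsta3 and Gsta4 are highest at ZT17, and Ugt2b37 is highest at ZT9 on a scale of few reads.

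Genes of the supply and turnover of the co-substrates were counted beside the transferases. The list of glutathione supply holds genes of turnover too, among them Ggt6, Ggct and Chac1. Of 12 measured genes of this list, 8 were called by the 24 h test (35.3% of all genes). Gclc, the catalytic subunit of the rate-limiting enzyme of glutathione synthesis, was at 459, 570 and 479 at ZT1 and at 133, 310 and 201 at ZT13 (2.34 times, peak at ZT23.5, adjusted P = 0.00253). Gsr, which regenerates reduced glutathione, was at 77.7, 78.9 and 72.6 at ZT1 and at 46.4, 52.3 and 48.6 at ZT13 (1.56 times, peak at ZT24.0, adjusted P = 0.000163). Cbs, which starts the route from homocysteine to cysteine, had means of 430 ± 30 at ZT1 and 189 ± 23.8 at ZT13 (2.28 times, peak at ZT1.1, adjusted P = 1.44e-05). With Cth and Ggct, 5 of the 8 called genes peaked between ZT21 and ZT3, against 21.4% of all called genes. The 6 called mu genes peaked in the same window, and a link between them was not tested. In the other lists 0 of 2 called genes of UDP-glucuronate supply peaked there, 0 of 5 of PAPS supply, 2 of 9 other conjugation enzymes and 0 of 14 in the list of regulators. Ggt6 peaked at ZT18.0, Gss at ZT10.9 and Chac1 at ZT3.3, while Gclm had means of 185 to 238 and no call.

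Of 5 genes of UDP-glucuronate supply, 2 were called, Ugp2 and Gusb, a share near the 35.3% of all genes. Ugp2, which makes UDP-glucose, was at 304, 436 and 455 at ZT5 and at 221, 234 and 230 at ZT21 (1.75 times, peak at ZT8.3, adjusted P = 0.000362). Gusb, the lysosomal enzyme that removes glucuronic acid, was at 31.8 ± 2.98 at ZT17 and 21.3 ± 0.342 at ZT5 (1.49 times, adjusted P = 0.000958). Ugdh, which makes UDP-glucuronate itself, had means of 149 ± 47.0 to 203 ± 12.7 with an adjusted P-value of 0.123.

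For PAPS supply, 5 of 6 measured genes were called (35.3% of all genes). Bpnt1, a phosphatase that clears the product left after sulfate transfer, was at 63.9, 61.5 and 63.7 at ZT17 and at 38.7, 44.0 and 42.0 at ZT5 (1.52 times, adjusted P = 1.86e-05). Slc35b2, which carries PAPS into the Golgi, was at 30.7 ± 1.51 at ZT9 and 20.9 ± 2.9 at ZT21 (1.47 times, adjusted P = 0.000453). Impad1 peaked at ZT5.7 and Papss1, a PAPS synthase, at ZT18.6, so the called genes of this list did not share a time of day.

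**Figure D5:**
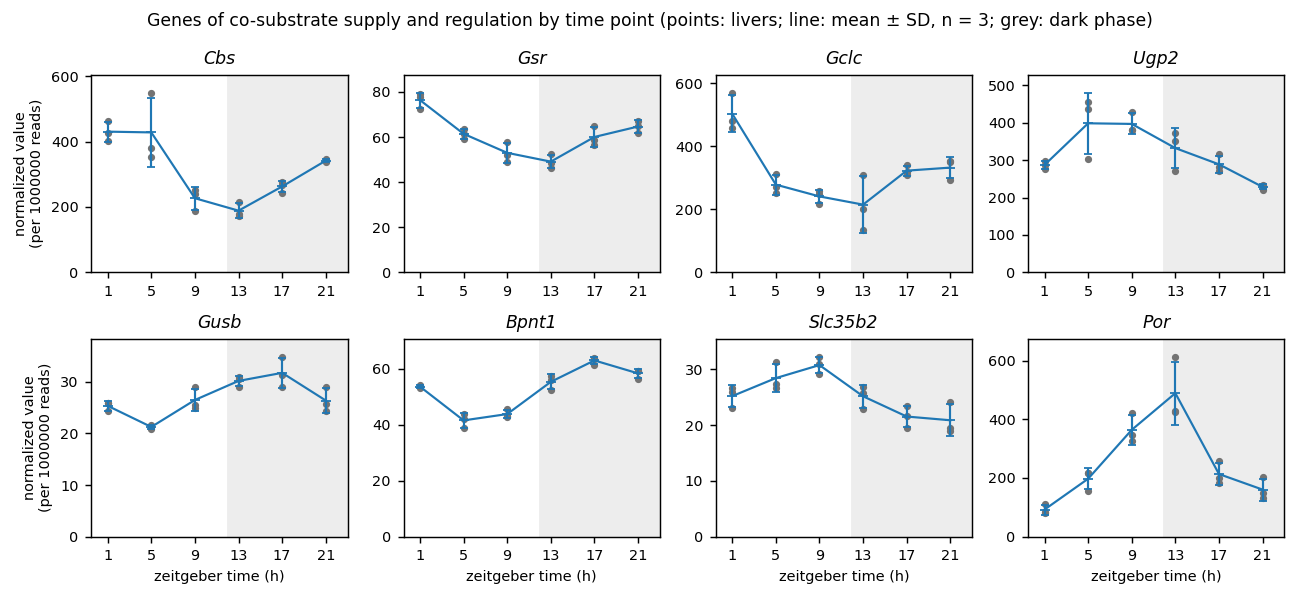
Normalized values of 8 genes of co-substrate supply and regulation (vertical axes from 0, per 1000000 reads) against zeitgeber time (h), with 1 point per liver, the mean and its SD (n = 3) as a line with bars and the dark phase in grey. Cbs, Gsr and Gclc have their highest mean at ZT1 and their lowest at ZT13, and Por is highest at ZT13, with a mean of 488.

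A list of 18 genes held regulators of conjugation genes and, with Por and Alas1, genes that serve cytochromes P450, and 14 of the 18 were called (35.3% of all genes), or 12 of 16 without Por and Alas1. Without ZT5 replicate 3, 13 of the 18 were called. The D-box binding factors Dbp, Tef and Hlf had peaks at ZT8.6, ZT10.7 and ZT12.0 (adjusted P = 1.91e-06, 2.97e-05 and 2.67e-06). Dbp went from 0.308 ± 0.148 at ZT1 to 111 ± 3.71 at ZT9, Tef from 27.2 ± 1.9 to 257 ± 13.0 at the same times and Hlf from 29.4 ± 3.15 at ZT1 to 82.7 ± 3.81 at ZT13. Por, the electron donor of microsomal cytochromes P450, was at 84.9, 79.7 and 111 at ZT1 and at 613, 427 and 426 at ZT13 (5.32 times, adjusted P = 2.62e-06). The xenobiotic receptors, chosen after their values were seen, were Nr1i3 (CAR), with means of 116 ± 4.93 at ZT1 and 266 ± 51.2 at ZT9 (adjusted P = 0.0045), and Nr1i2 (PXR), with a ratio of 1.51 and a peak at ZT14.4 (adjusted P = 0.00279). Nfe2l2, which encodes NRF2, and Ahr were not called (adjusted P = 0.602 and 0.662). No relation between these regulators and single members was tested.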

How the data were processed

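Liver polyA RNA was sequenced by the authors as 50-nt single reads (NEBNext Ultra libraries, HiSeq2500). Per the labels and the methods, reads were handled with CASAVA 1.8.2 and Cutadapt and quantified with RSEM 1.2.20 on the GRCm38 transcriptome of Ensembl gene-build 84, which divides reads that match several genes, and were normalized with limma. The strand setting is not given in the sources used here. As deposited, each value is a linear signal, namely the estimated count plus 0.5 per 1000000 reads of an effective library size, with column totals between 941088 and 1077230. They are not whole counts, so no count test was used.

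From these values, limma 3.58.1 (R 4.3.3, eBayes without a trend) fitted log2(value + 1) in 14449 genes above the value of 0 reads in at least 1 liver. The pseudocount of 1 understates changes of low genes. JTK (periods of 20, 24 and 28 h) was written again in Python 3.11.15 with numpy 2.4.6. Ratios of neighbouring members with a mean value of at least 1 were tested by permutation (100000 draws). The methods were tested on simulated data. CircaN, the study's own curve fit, was not refitted because the text does not give its curve constants. Coordinates and shared 50-base windows come from GENCODE M21 on GRCm38, and start windows from RefSeq.

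Named members were the 14 called ones with the largest ratio, the one with the smallest P-value of each family any with a 12 h call and any at the value of 0 reads in at least 9 livers. From each other list, up to 4 genes with the smallest P-values were named, and further genes were named after their values were seen. The symbol rule for the members and the lists were chosen with earlier results of these data known, although the rule uses no value. P-values of the test between time points rest on the spread between the 3 mice of a time point. In the 24 h and 12 h tests the residual also holds any departure of the time point means from the fitted curve. In all of these limma moderated the variance of a gene by that of all genes. P-values of the pairs come from shuffling the livers over the times, and those of JTK from ranks. A gene of the list of other conjugation enzymes is not reported here by name.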

Additional observations from a re-analysis of the deposited data

How the results depend on the processing

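The 19 members with a 24 h call stayed called with a pseudocount of 0.1 or 0.5, with genes of a mean value of at least 1, with either other scaling, with a trend in eBayes and with the 12 h pair in the model, which called 19 to 21 members. At an adjusted P-value under 0.01 the count was 12, and JTK called 6 of the 19. JTK itself called 10 of the 49 members when equal cosines were taken as 1 group (22.4% of all genes) and 10 with a period of 24 h only (17.4% of all genes). At an adjusted P-value under 0.01 it called 2 (2.18% of all genes). The count over all genes thus moved in the same direction. The first alternative changed only the null, the second only the periods and the third only the threshold. A cosine of 24 h takes equal values at some of the 6 time points, which the main null counts as distinct. Leaving out 1 liver at a time gave 17 to 21 members for 24 h, 16 to 20 for the difference between time points, 0 for 12 h and 8 to 12 pairs of neighbours. Over the same fits the called genes were 7 to 9 for glutathione supply, 2 to 3 for UDP-glucuronate supply, 4 to 5 for PAPS supply, 8 to 10 for other conjugation enzymes and 13 to 14 for regulators. Of the members described, Gsto1 gained a 24 h call in 9 of 25 alternatives. Scaling to the same column total moved the median of all genes by at most 0.098 in a liver on the log2 scale. Column totals were lower at ZT5 (941088, 969019 and 967823) and ZT9 (991635, 982876 and 962777) than at ZT17 (1043536, 1077230 and 1030952). With this scaling the fitted difference fell in some members, as in Gsta3 (0.85 to 0.74), and rose in others, as in Gstm4 (1.24 to 1.29). Its part in the low and high times of the members was not tested. No paired analysis was possible because each mouse gave 1 liver at 1 time point. Depth limits the members of few reads, and the offset of 0.5 reads hides any difference among the lowest values.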

Other observations

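Other enzymes of conjugation, by methylation, acetylation and amino acid transfer, were measured in the same livers. Of 15 measured genes, 9 were called by the 24 h test of limma (35.3% of all genes). Inmt, which methylates indoles, was at 541, 587 and 627 at ZT1 and at 1290, 1150 and 1020 at ZT13, with no overlap (1.97 times, peak at ZT12.4 ± 0.5 h, adjusted P = 0.000135). Baat, which joins bile acids to taurine or glycine, had a mean of 320 ± 13.9 (SD, n = 3) at ZT17 and 223 ± 10.3 at ZT9 (1.43 times, adjusted P = 0.000253). Nat8, which acetylates the cysteine conjugates that remain of glutathione conjugates, had a peak at ZT17.7 ± 0.8 h and means of 9.09 ± 4.03 at ZT5 and 24.6 ± 4.02 at ZT17 (2.7 times, adjusted P = 0.00263). Nnmt, As3mt, Glyat, Acsm5 and Nat2 were also called, while Gnmt, Tpmt, Nat1, Acsm1, Acsm2 and Acsm3 were not called.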
